A study of Neodesmus pupukensis with 4 samples.

Results

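The falling transcripts of a microalgal culture are 51 assembled sequences whose level was lower in each successive harvest of the strain UTEX2341. They are 51 of the 14905 sequences measured and come from 36 of 6216 components, a component being a group of assembled sequences whose identifiers begin alike. They were selected on the measured values of all 4 libraries. A member had at least 20 reads at 57 h, a level at 45 h of at most 0.5 times that at 14 h, a level at 57 h of at most 0.5 times and more than 1/16 of that at 45 h, and a level at 88 h of at most 0.8 times that at 57 h. The level is RPKM, the reads of a sequence scaled to its length and to the size of the library.

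RNA sequencing was used to follow expression during the growth of an alga studied for its lipid. The sample labels place the strain in Neodesmus pupukensis, a green alga, and the series' design text calls it Chlorella minutissima. The 4 groups were cultures harvested after 14, 45, 57 and 88 h, with 1 library of total RNA each. All were grown fed-batch at 25 °C in shaken flasks, and no group differed from another by genotype or added agent. The labels do not state whether the harvests came from 1 flask or several. Each time has a single library, so differences between times lack any replicate check. The choice of members fixes their direction, so no test was made on them and their ratios are a description. Intervals are 95% exact binomial intervals and cover counting error only.

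The files pair none of the 14905 identifiers with a gene name or function. The labelled species was therefore not checked against marker genes. Members are described by level, course, length and component, and the 2 members with the most reads at 14 h, from different components, are given by identifier. In green algae grown in flasks, light per cell and dissolved nutrients usually decline as cells multiply, and growth slows. Many species then store carbon as starch or as lipid droplets of triacylglycerol, while transcripts that serve rapid growth often make up less of the mRNA. The level of a transcript reflects synthesis, decay and dilution by growth. RNA sequencing of equal-sized libraries gives its share of the RNA sampled, not its copies per cell, so fewer cells carrying a transcript and less of it per cell cannot be told apart here.

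The stated library totals were alike, between 11874560 and 12495251 reads. The reads counted on sequences came to 1.27 to 1.36 times those totals, and the labels do not state how reads that match several sequences were counted. The median RPKM of all sequences was 10.3, 11.2, 5.38 and 5.52 at 14, 45, 57 and 88 h. A typical sequence was thus lower in the 2 late libraries on the deposited scale, and the members' ratios are read against that shift below.

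The criteria narrowed the data unevenly. Of the 14905 sequences, 12348 had at least 20 reads at 57 h. At 45 h 639 of these were at most 0.5 times their 14 h level. At 57 h 302 of the 639 were again at most 0.5 times their 45 h level, while 183 of the 639 stood at or above that level and 84 were at least 2-fold above it. The bound of 1/16 removed 13 of the 302 and left 289 sequences in 209 components. The last criterion kept 51 of the 289, or 17.6%.

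At 14 h the members were mostly well-expressed transcripts, and by 88 h most were below the middle of the distribution. Their median RPKM was 35.5, 14.6, 4.11 and 2.76 at 14, 45, 57 and 88 h. The range over members was 8.45 to 189 RPKM in the 14 h library and 4.01 to 92.7 RPKM in the 45 h library. It was 0.977 to 28.5 RPKM in the 57 h library and 0.515 to 20.6 RPKM in the 88 h library. In the first library 49 of the 51 lay above the median RPKM of all sequences, and this held for 38, 18 and 15 members at 45, 57 and 88 h. The median member stood at the 77.0th percentile of all sequences at 14 h, then at the 55.8th, 44.6th and 37.9th. The rule favours such a course, through its floor on reads at 57 h and the drops it asks for. All sequences also include those below the floor. The 12348 sequences past the floor had a median RPKM of 15.5 at 14 h and 8.12 at 88 h. The reads on members were 65740, 27857, 8481 and 6061 at the 4 times. As a share of the library total this was 0.526% (0.522 to 0.530%) in the 14 h library and 0.235% (0.232 to 0.237%) in the 45 h library. The share was 0.0699% (0.0684 to 0.0714%) in the 57 h library and 0.0502% (0.0489 to 0.0515%) in the 88 h library. These are shares of the stated total, which the counted reads exceed. As a share of counted reads the 14 h value was 0.391%, outside the interval given. The 4 most-read members, from 2 components, held 49.7% of the members' reads at 14 h.

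**Figure D1:**
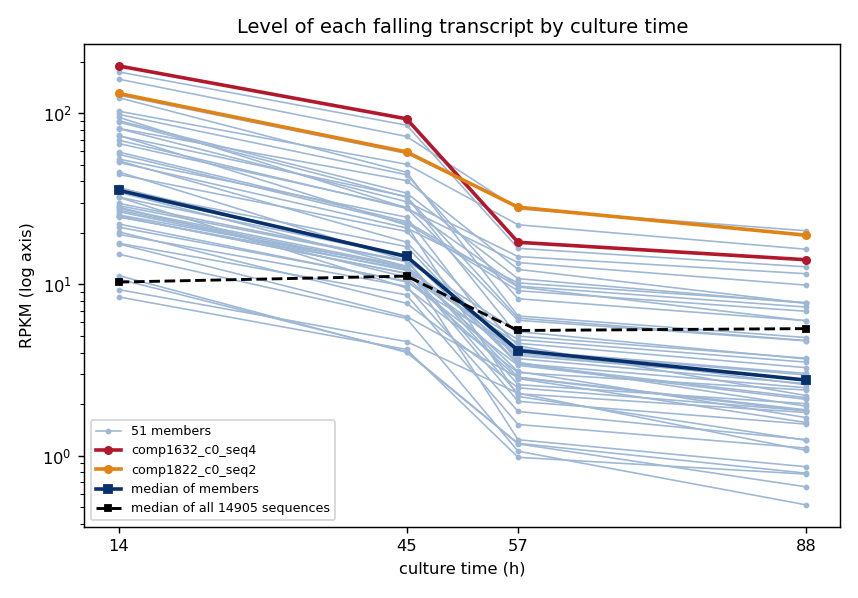
RPKM on a log axis against culture time in hours, with 1 line per member (n = 51), the 2 named members in colour, and the medians of the members and of all 14905 sequences. The member median starts above the median of all sequences (35.5 against 10.3 RPKM at 14 h) and ends below it (2.76 against 5.52 RPKM at 88 h).

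The member with the most reads at 14 h was comp1632_c0_seq4, of 4202 bases, in a component of 8 sequences. It had 9918, 4627, 898 and 707 reads at 14, 45, 57 and 88 h, or 189, 92.7, 17.6 and 13.9 RPKM. Its level at 45 h was 0.491 times that at 14 h, close to the threshold. The main drop came between 45 and 57 h, where its ratio was 0.19. At 88 h it was 0.791 times its 57 h level, also near the threshold. At 88 h comp1632_c0_seq4 was 13.6-fold lower than at 14 h, with a log2 ratio of -3.76 (-3.87 to -3.65).

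The second named member, comp1822_c0_seq2, of 4012 bases, followed a more even course. It had 6538, 2829, 1374 and 939 reads, or 130.4, 59.4, 28.2 and 19.4 RPKM, at the 4 times. Its ratios at the 3 steps were 0.455, 0.475 and 0.686, the first and middle ones being nearly equal. Its last-step log2 ratio was -0.54 (-0.66 to -0.42), an interval wholly below the threshold of 0.8 times. Its only other sequence, of 4099 bases, was also a member and had nearly the same counts, 6532, 2833, 1415 and 963 reads. The courses of these 2 named members cross in the plot of levels by time. At 45 h comp1632_c0_seq4 had the higher RPKM, and at 57 h and 88 h comp1822_c0_seq2 had.

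The range of courses is shown by the members with the largest and smallest differences among the 49 that averaged 100 reads or more per library. The largest difference over the whole culture was in a member of 1079 bases, alone in its component, with 74.2, 22.2, 2.22 and 1.23 RPKM at the 4 times. Its 88 h library held 16 reads, against 1001 in the 14 h library, a 60.5-fold lower level with a log2 ratio of -5.87 (-6.73 to -5.21). The smallest was in a member of 939 bases from a component of 13 sequences, with 103, 50.3, 22.3 and 16.05 RPKM and an 88 h over 14 h log2 ratio of -2.68 (-2.91 to -2.45). Every member was at least 6.4-fold lower at 88 h than at 14 h, as the 3 thresholds together require at least 5-fold. Between these ends, 34 of the 51 were at least 10-fold lower and 10 at least 20-fold lower. Among all sequences past the floor the upper quartile was 3.05-fold lower. Their shares at 10-fold and 20-fold were not counted, so nothing is read from these counts.

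The step between 45 and 57 h took the largest part of the drop on the deposited scale. The members' median log2 ratio was -1.15 for 45 h over 14 h, -1.77 for 57 h over 45 h and -0.47 for 88 h over 57 h, and -3.74 for 88 h over 14 h. As ratios of RPKM the medians of the 3 steps were 0.45, 0.291 and 0.720. Taken separately for each step, the members' median share of the whole log2 difference was 50.2% for the middle step, 33.9% for the first and 14.4% for the last. The steps last 31, 12 and 31 h. Per hour the median log2 ratio was -0.037, -0.147 and -0.015. The middle step was the steepest per hour in all 51 members. The rule largely sets this order, asking for at most 0.5 times within 12 h there and within 31 h at the first step. In size the middle step was the largest in 41. That size order depends on the scale: with TMM, a scaling that centres the typical sequence at no change, the first step was the largest in 30 members and the middle one in 20. Per hour the middle step was the steepest in 44 with TMM, among members that the rule had chosen on stated totals.

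The typical sequence was itself lower at the middle step. Over all sequences averaging 10 reads or more in the libraries compared, the median log2 ratio was -0.02 for 45 h over 14 h, -0.71 for 57 h over 45 h and -0.07 for 88 h over 57 h. Relative to these, the members' medians were -1.13, -1.06 and -0.40. Set against the typical sequence, the first and middle steps were therefore of about equal size. TMM shifts every ratio of a step alike, and by less than the drop that the rule asks for. All 51 members thus stayed lower at every step with TMM by construction. Their ratios of 57 h to 45 h then lay between -2.63 and -0.29 on the log2 scale.

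All 51 members are past each threshold by the rule, and the same thresholds over all sequences give the background. A level at 45 h of at most 0.5 times that at 14 h was seen in 5.93% of 13920 sequences. A level at 57 h of at most 0.5 times that at 45 h was seen in 41.8% of 13963 sequences, and a level at 88 h of at most 0.8 times that at 57 h in 20.2% of 13502. Nothing about the members is read from these shares, since the rule used the same contrasts.

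**Figure D2:**
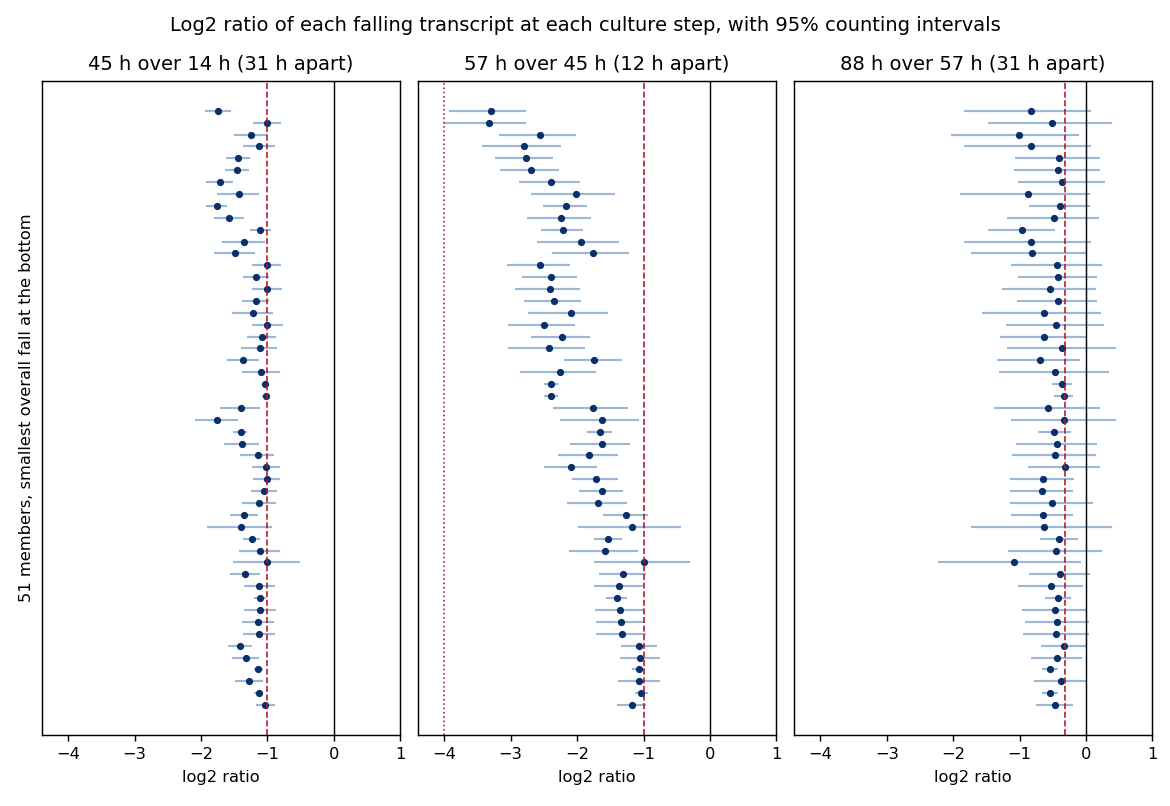
Log2 ratio of each member at each step, in 1 panel per step, with bars for the 95% counting interval, dashed lines at the upper thresholds of the rule, a dotted line at 1/16 and a solid line at no change. The middle panel has the widest spread of points (-3.33 to -0.99), and in the right panel most bars cross no change.

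At the first step the members lay close together, between 0.295 and 0.499 times the 14 h level, and 26 of them at 0.45 times or more. Among members averaging 100 reads or more, the largest first-step difference was in one of 1256 bases, alone in its component, with 417 reads at 45 h against 1486 at 14 h, giving a log2 ratio of -1.76 (-1.92 to -1.60). The smallest was in a member of 2172 bases, with 224 reads at 45 h against 472 at 14 h, giving a ratio of 0.499. For 23 members the whole counting interval lay below 0.5 times, beside 2.41% of all sequences. The other 28 could have missed the threshold within counting error.

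At the middle step the members spread widest, between 0.0975 and 0.499 times the 45 h level. In 23 of them the 57 h level was at most 0.25 times that at 45 h, and 2 of these were more than 8-fold lower. Among all sequences past the floor the lower quartile of this ratio was 0.36. Their share at or below 0.25 times was not counted, so nothing is read from these counts. Among members averaging 100 reads or more, the largest middle-step difference was in one of 1732 bases, alone in its component, with 26 reads at 57 h against 261 at 45 h, giving a log2 ratio of -3.33 (-4.0 to -2.8). The smallest was in the second member of the comp1822_c0_seq2 component, with 1415 reads at 57 h against 2833 at 45 h, giving a log2 ratio of -1.03 (-1.13 to -0.94). The whole counting interval lay below 0.5 times in 38 of the 51, beside 31.6% of all sequences. No sequence failed the bound of 1/16 alone, so this bound shaped the set at no point.

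The last step was small and mostly within counting error. The ratio of 88 h to 57 h ranged over members between 0.464 and 0.798, with 29 of the 51 at 0.7 or more. Reads were few by then: 20 members had fewer than 50 reads at 57 h and 29 had fewer than 50 at 88 h. The whole counting interval lay below no change in 17 of the 51 members, from 14 components, beside 22.6% of all sequences. It lay below the threshold of 0.8 times in 3 members, namely both sequences of the comp1822_c0_seq2 component and a member of 1884 bases. The member of 1884 bases had 51 reads at 88 h against 100 at 57 h, giving a log2 ratio of -0.96 (-1.48 to -0.46). Summed over 1 member per component, the members had 3822 reads at 88 h and 5372 at 57 h. The ratio of these sums was 0.715 (0.685 to 0.745), a value that follows from the threshold of 0.8.

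The last criterion divided a set that was centred on no change. The 289 sequences that met every criterion before 88 h had a median ratio of 88 h to 57 h of 0.990. Of these, 151 were lower and 138 higher at 88 h, and 190 lay between 0.8 and 1.25 times. The whole counting interval lay below no change in 24 and above it in 41. The 51 members are the 17.6% at or below 0.8 times, and the share of all sequences at or below it was 20.2%. The 48 at 1.25 times or more form an upper tail of similar number. The 238 sequences that met all but the last criterion were similar to the members in RPKM but had more reads. Their median at 57 h was 89.5 reads, against 56 for the members, so counting error weighed more on the members' last ratios. Their median RPKM was 45.6 at 14 h and 4.39 at 57 h, against which the members' medians were 35.5 and 4.11. At the middle step their median log2 ratio was -1.95, and that of the members -1.77.

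**Figure D3:**
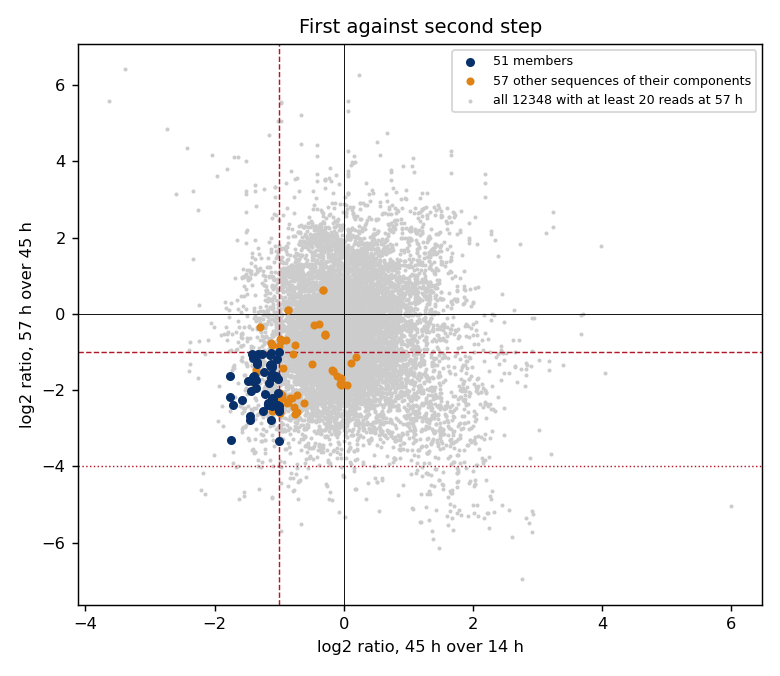
Log2 ratio of 57 h over 45 h against that of 45 h over 14 h, for the 51 members, the 57 other sequences of their components past the floor of 20 reads and all 12348 sequences past it, with the thresholds as broken lines. Members fill the corner that the rule sets, and 4 of the 57 other sequences lie above 0 on the vertical axis.

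The members just inside and just outside the thresholds differed little. At the first threshold, a member of 2172 bases had a ratio of 0.4994 and a sequence of 5636 bases outside the set 0.5013, from 273 reads at 45 h against 573 at 14 h. At the middle threshold, a member of 927 bases stood at 0.4991 with 26 reads at 57 h and 51 at 45 h, and the nearest sequence outside at 0.514 with 21 and 40 reads. At the last threshold a member of 5739 bases stood at 0.7976 and a sequence of 1304 bases outside at 0.8024, with 143 reads at 88 h and 179 at 57 h. The member nearest the floor had 22 reads at 57 h, and a sequence outside had 18. In all, 560 sequences missed the first threshold alone, 238 the last, 89 the middle one and 19 the floor.

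The 51 members are fewer independent observations than their number. Of the 36 components, 26 held 1 member and 10 held 2 to 4, together 25 members. Within those 10 components the members ran nearly in parallel, with a median range of log2 ratio of 0.04 at the first and middle steps and 0.07 at the last. All had met the same thresholds, and any sequence of these components that ran otherwise was left out, so the rule narrows these ranges. The widest range over the whole culture was 0.33. A component of 5 sequences shows how close such counts can be. Its 4 members, of 1355 to 1701 bases, had 479 to 504 reads at 14 h, 209 to 220 at 45 h, 85 to 87 at 57 h and 60 to 64 at 88 h. Whether these sequences share reads was not tested.

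In 19 of the 36 components every sequence was a member, and 15 of these consisted of a single sequence. The other 17 held 61 further sequences outside the set, of which 57 passed the floor. These mates are not independent of the members or of each other, since sequences of a component can share reads. A component of 13 sequences gave 12 of them and a component of 12 gave 11. The shares below are therefore a description only. Of these 57 mates, 54 were lower at 45 h than at 14 h, beside 6302 of the 12348 sequences past the floor. At 57 h 53 were lower than at 45 h, beside 67.0% of those sequences, and at 88 h 45 were lower than at 57 h, beside 60.2%. Lower levels at all 3 steps were seen in 38 mates, beside 21.0% of sequences past the floor. The 19 that were higher at 1 step or more came from 4 components. All 57 were lower at 88 h than at 14 h, beside 67.1%. At 88 h 49 of them were at most 0.5 times their 14 h level, beside 41.4%, and their median 88 h over 14 h log2 ratio was -2.31. A single criterion kept out 23 of the 61, the first threshold in 11 and the last in 11. When all sequences of each of the 17 mixed components were summed, 5 sums met the rule and 14 were lower at every step. The sums of the other 19 components meet the rule by construction.

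**Figure D4:**
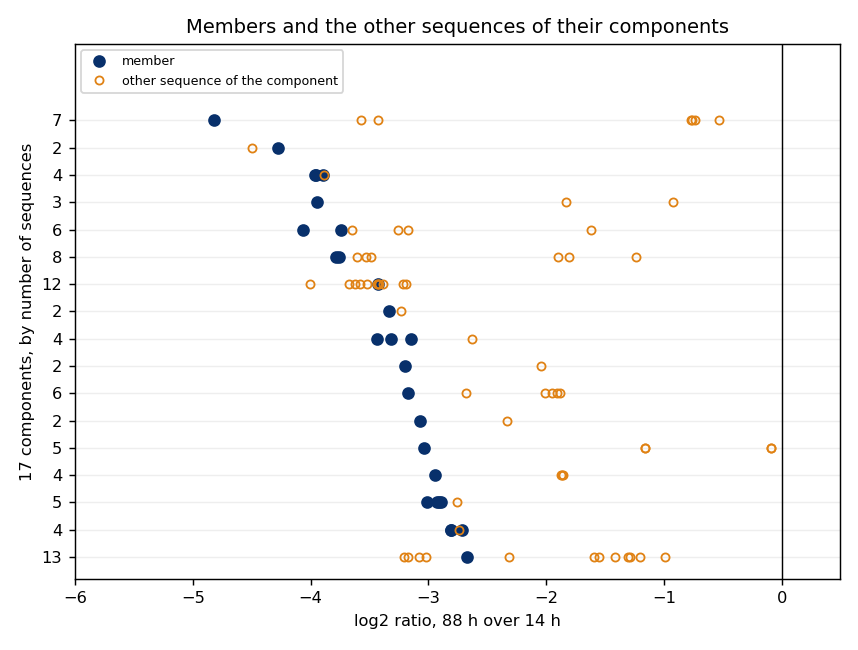
Log2 ratio of 88 h over 14 h for members (filled) and for the other sequences (open) of the 17 components that hold both, 1 row per component, labelled with its number of sequences. The open points reach -0.09 in a component of 5, while its member stands at -3.04.

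In a few components, chosen after their values were seen, the ratios of the member stood far from those of some mates. One was a component of 5 sequences. Its member, of 844 bases, had 57.6, 22.7, 9.18 and 6.97 RPKM at the 4 times. Mates of 1941 and 1753 bases had 16.6, 13.3, 20.5 and 15.6 RPKM and 18.5, 14.8, 23.0 and 17.4 RPKM. At the middle step the member's log2 ratio was -1.30 (-1.67 to -0.96), and those of the 2 mates were 0.63 (0.42 to 0.84) each. The member and mates parted at the middle step alone in direction: at 88 h over 57 h all 3 stood at -0.40.

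A component of 7 sequences was divided in a similar way. Its member, of 2410 bases, had 15.0, 6.32, 1.06 and 0.515 RPKM, and its last-step log2 ratio of -1.02 (-2.04 to -0.11), from 15 reads at 88 h and 31 at 57 h, was the largest among members averaging 100 reads or more. Mates of 2635 and 2538 bases were also low late, at 1.45 and 1.70 RPKM at 88 h and 17.3 and 18.4 RPKM at 14 h. The 4 longest mates, of 3871 to 6812 bases, kept most of their level, with 88 h over 14 h log2 ratios between -0.77 and -0.53. The member's was -4.82 (-5.71 to -4.13). The member held 0.126% of the component's reads at 88 h and 2.11% at 14 h.

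The largest component of the set, with 13 sequences, held 1 member. Among its mates, 4 of 649 to 1430 bases had a counting interval wholly above no change at the last step, with log2 ratios of 0.34 to 0.42, where the member stood at -0.47 (-0.76 to -0.19). Its longest mate, of 3258 bases, had 151, 171, 77.6 and 76.0 RPKM. In the component of comp1632_c0_seq4 the mates were divided, and the 2 longest nearly met the rule. Those mates, of 4607 and 4350 bases, had 850 and 840 reads at 88 h, 9861 and 10051 at 14 h, and last-step log2 ratios of -0.28 (-0.41 to -0.14) and -0.31 (-0.44 to -0.18). Their intervals overlap that of comp1632_c0_seq4, -0.34 (-0.48 to -0.19). A difference between them at this step was not tested, and these sequences can share reads. A mate of 2914 bases had an 88 h over 14 h log2 ratio of -3.61, near the -3.76 of comp1632_c0_seq4. Those of 3062, 1733 and 1585 bases stood higher, at -1.80, -1.23 and -1.90. The mates of 1733 and 1585 bases were also slightly higher at 45 h than at 14 h, with log2 ratios of 0.11 and 0.05.

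Most members were short sequences. Length cancels in the ratios of the rule, but it bears on the reads behind them. At a given RPKM a shorter sequence has fewer reads. The floor then removes it more readily, and counting error moves its ratios past a threshold more readily. How far the rule favoured or disfavoured short sequences was not tested. Members ranged between 580 and 5739 bases, with a median of 1170 and quartiles of 864 and 1944. The 12348 sequences past the floor had a median of 2494.5 bases and quartiles of 1392.5 and 4204. Of the members 39.2% were under 1000 bases, against 14.3% of sequences past the floor, and 74.5% against 40.1% were under 2000 bases. The difference was smaller when each component was counted once, by its most-read member or sequence. The median was then 1203 bases for 36 members and 1844 bases for 5127 sequences past the floor, with 38.9% and 20.9% under 1000 bases. The 238 sequences that met all but the last criterion had a median of 1814 bases, counted per sequence. No test was made, because sequences of a component are not independent.

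**Figure D5:**
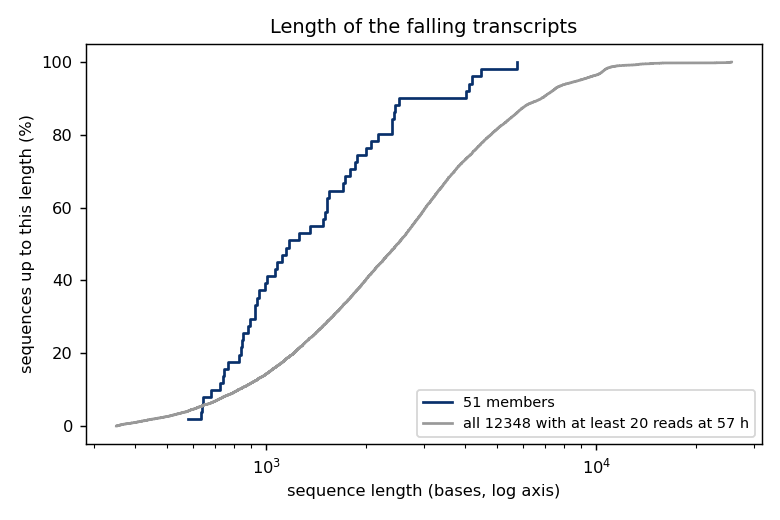
Share of sequences up to a given length, on a log axis in bases, for the 51 members and for all 12348 sequences with at least 20 reads at 57 h. The members' curve lies to the left for most of its course, with a median of 1170 bases for members against 2494.5 for all past the floor.

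The shortest and longest members differed in RPKM but had courses of like shape. The shortest, of 580 bases, had 98.5, 43.7, 8.24 and 6.14 RPKM at the 4 times. The longest, of 5739 bases, had 8.45, 4.17, 0.977 and 0.779 RPKM, the lowest level of any member at 14 h. Both had their largest step between 45 and 57 h on the deposited scale, at log2 ratios of -2.40 (-2.84 to -2.00) and -2.09 (-2.50 to -1.71). The longest came from a component of 12 sequences. The other 11 were 5636 to 5959 bases long, had 562 to 630 reads at 14 h and 34 to 64 at 88 h, and were each lower at all 3 steps.

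Within the set, the sizes of the steps were weakly related. Over 1 member per component (n = 36), Pearson's r between the first and last log2 ratios, which share no library, was -0.15 and Spearman's rho -0.17. The middle ratio gave r = 0.07 with the first and 0.09 with the last, pairs that share a library. RPKM at 14 h gave its highest r with the last ratio, with which it shares no library, at 0.34 (rho 0.30). With the first, middle and 88 h over 14 h ratios it gave -0.16, 0.0023 and 0.04, and the first and the 88 h over 14 h ratios share the 14 h library with it. Length gave 0.25, -0.03, 0.15 and 0.10 with the first, middle, last and 88 h over 14 h ratios. These are descriptions across sequences of the same 4 libraries, on ranges that the rule cut off.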

How the data were processed

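The files that the authors deposited hold, per the file headers, a read count per assembled sequence, the library's total reads, the sequence length and an RPKM value. RPKM equalled the deposited count scaled by length and stated total (largest difference 3.8e-11). BWA is named per the submitters' processing notes; the assembler, the counting tool and the handling of shared reads were not given in the sources used here. Groups follow the labelled culture time. Ratios are log2 of reads plus 0.5 over the stated total, later over earlier time; ratios written as "times" use RPKM without a pseudocount. Their intervals are conditional Clopper-Pearson intervals at 95%. Since PCR copies and shared reads are not independent, these are too narrow. The background used sequences averaging 10 reads or more in the libraries compared. No test on culture time was made, because the rule used all 4 libraries. The members and lists were chosen with earlier results of these data known. The gene lists planned could not be scored, as 0 sequences carry a name. Identifiers are given for the 2 members with most reads at 14 h, from different components; others were chosen by extreme ratio, extreme length or nearness to a threshold. Component examples were chosen after their values were seen. The rule and the interval were tested on simulated Poisson counts. The 200 planted sequences had more reads than most members and a last-step ratio of 0.5. That test says little of members with few reads, of smaller last steps or of shared reads. Alternatives covered scaling, floors, pseudocount, counting error, thresholds and 1 sequence per component. The tools were edgeR 4.0.16 (scaling factors only), R 4.3.3, matplotlib 3.10.9, scipy 1.17.1, pandas 2.3.3, numpy 2.4.6 and Python 3.11.15.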

Additional observations from a re-analysis of the deposited data

How the results depend on the processing

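Members were chosen anew under 12 alternatives. The thresholds themselves hold the members' median ratios below 0 and near their values, so these medians say nothing of stability. The 51 members in 36 components became 24 in 19 with TMM, 23 in 19 with median-of-ratios factors, 31 in 21 with a floor of 50 reads at 57 h and 2 in 2 when 88 h had to be at most 0.5 times 57 h, where the median last-step log2 ratio was -1.05. All of these were among the 51. Of the 27 lost with TMM, 22 missed the middle threshold and 8 the last, with both scalings setting the typical log2 ratio of 57 h over 45 h at -0.01, against -0.71 with stated totals. Without a floor there were 70 members in 55 components. When the whole counting interval had to be past each threshold, 0 members in 0 components were left, so at this depth no single sequence met the rule beyond counting error. With 1 sequence per component, the most read, 26 members were left, since in 10 components that sequence was outside the set. The members' share of reads at 14, 45, 57 and 88 h was 0.391, 0.172, 0.0541 and 0.0394% of the counted reads, and 0.343, 0.150, 0.0443 and 0.0316% of the stated total with 1 member per component. The bound of 1/16 changed nothing. No library could be left out, since the rule needs each time. No paired analysis was possible because single libraries leave no replicates to pair.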
